A study of Mus musculus with 10 samples.

Results

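The genes described here encode the malic enzymes Me1, Me2 and Me3 and 7 other enzymes that make or help to make NADPH, in whole back skin of young mice colonised with staphylococci. All 10 symbols (Me1, Me2, Me3, G6pdx, Pgd, Pgls, Taldo1, Tkt, Idh1 and Nnt) matched a single Ensembl gene each, out of 46078 genes counted, and all 10 were among the 16909 genes with enough reads to be tested. Me1 was chosen by its difference between the groups in these same libraries, and the other 9 were added for their function with that result known. The difference in Me1 is therefore given as a description. Whether a fit called Me1, and counts over the 10 genes, support nothing by themselves.

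Libraries came from C57BL/6 mice kept specific pathogen free and given either Staphylococcus aureus SF8300 (the SA group) or Staphylococcus epidermidis Tü3298 (the SE group) on the skin every other day between days 3 and 19 of age. Back skin was punched out (8 mm) on day 21, after light removal of fat, so it holds epidermis, hair follicles, sebaceous glands, dermis and what is left of fat and muscle. Each group has 5 libraries, and no skin without added bacteria was used, so every difference is between the colonised groups. Whether the 5 libraries of a group are 5 animals is not said in the labels, and p-values therefore refer to library-to-library spread, which may be partly technical. Reads on genes ranged from 21140654 to 25417851 per library, and levels are given as CPM, read counts scaled to a common library size. In a principal component analysis, SE libraries 3, 4 and 5 had component scores of 37.9 to 54.3 where the other 7 libraries had -32.5 to -9.3 (45.2% of the variance), so the fold changes of the 10 genes are also given without them, which leaves 5 SA and 2 SE libraries.

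NADPH is the reducing agent that cells spend on building fatty acids and cholesterol and on recycling glutathione and thioredoxin. In the cytosol it comes from malic enzyme 1 (Me1), which turns malate into pyruvate, from isocitrate dehydrogenase 1 (Idh1), and from the oxidative branch of the pentose phosphate pathway. In mitochondria it comes from Me3, from isocitrate dehydrogenase 2 and from the transhydrogenase Nnt, while Me2 works mostly with NAD. In skin, sebaceous glands and fat cells are among the sites of lipid synthesis.

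Me1 had the largest difference of the 10 genes, and it was the reason for choosing them. It lies on the minus strand of chromosome 9, 86581371 to 86695953 in GRCm38 (ENSMUSG00000032418), and 0.78% of its exonic bases are shared with the antisense gene A330041J22Rik. In SA skin its level was 388, 394, 428, 417 and 398 CPM in libraries 1 to 5. In SE skin it was 247, 263, 208, 224 and 193 CPM. The groups did not overlap: the lowest SA library was library 1 and the highest SE library was library 2. The means were 405 ± 17 CPM in SA and 227 ± 28.2 CPM in SE (SD, n = 5 per group), a log2 fold change, SA minus SE, of 0.83 ± 0.0885 (a fold change is followed by its standard error throughout), or 1.78-fold. In bulk skin, more cells of a type that expresses Me1 and more Me1 RNA per cell cannot be told apart. SA libraries were close to each other, with a coefficient of variation of 4.19% against 12.4% in SE.

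The Me1 difference was also seen against SE libraries 1 and 2 alone, which have 255 CPM on average. Without SE libraries 3, 4 and 5 the log2 fold change was 0.68 ± 0.0888. SE libraries 3, 4 and 5 had the lowest Me1 levels of all 10 libraries, at a mean of 209 ± 15.7 CPM (SD, n = 3).

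Markers of the sebaceous gland, the lipid-secreting gland of the hair follicle, were also lower in SE libraries 1 and 2 than in SA. Summed over 12 markers, they had 2898 to 3195 CPM in SA, 2445 and 2659 CPM in SE libraries 1 and 2, and 2617 to 3293 CPM in SE libraries 3, 4 and 5. Against SE libraries 1 and 2 alone, all 12 had a higher mean in SA, with a median log2 fold change of 0.28 against 0.68 for Me1, and edgeR called 1 of them, Dgat2l6 (0.77, adjusted p = 0.0414). Over all genes, that fit without SE libraries 3, 4 and 5 called 41. With all 10 libraries, 7 of the 12 had a higher mean in SA and the median was 0.16. Dgat2l6 was then also at 0.16 (edgeR adjusted p = 0.768), with a mean of 45.2 CPM in SA and 49.6 CPM in SE libraries 3, 4 and 5. In SE libraries 3, 4 and 5, which had the lowest Me1, the median sebaceous sum was 2976 CPM, against 3050 CPM in SA. The part of the sebaceous markers in the Me1 difference was not tested.

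The start of Me1 is shown because it is the gene on which the difference turns. The 211 bases before its first annotated transcript start, chr9:86695954-86696164 on the minus strand (RefSeq promoter table, GRCm38.p6), are given 5′ to 3′, with matches to the GC box GGGCGG on either strand in capitals where they lie wholly within these bases. Another match, chr9:86695951-86695956, crosses the end of the stretch and is not in capitals.
Me1 upstream: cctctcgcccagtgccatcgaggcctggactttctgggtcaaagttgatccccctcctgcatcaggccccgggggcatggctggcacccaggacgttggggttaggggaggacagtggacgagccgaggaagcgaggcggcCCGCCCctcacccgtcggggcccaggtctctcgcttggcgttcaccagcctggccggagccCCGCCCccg
Promoter windows were held for 8 of the 10 genes, and where a gene had several, the window nearest its annotated start was counted. The start sites of the counted windows of Tkt, Me3 and G6pdx lie 772, 426 and 314 bases inside the annotated gene. The 250 bases before them are therefore within the gene. Of the 8 genes, 7 had a GC box in the 250 bases before the start site, against 32.7% of 32851 windows of that length. Shares over all windows count every window of a gene that has several, so they are not shares of genes. The CCAAT box was found in Idh1, Pgd and Taldo1 and in 33.8% of all windows, and Me1 had a match in its other, downstream window. Of the 8 genes, none had the E-box CACGTG (6.02% of all windows), the sterol response element core TCACNCCAC (1.05%) or the TATA box TATAAA (12.4%) there. All were searched on both strands and each separately, so matches of different motifs may overlap, and a missing match says only that these letters are not in this window.

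The antioxidant response element, bound by the stress factor Nrf2, has the core TGACNNNGC, which matched 1 of the 8 genes in the 250 bases, G6pdx, against 10.2% of all windows. After these matches were seen, the search was widened to the 50 bases past the start site and to every window of a gene. It then matched Me1, G6pdx and Pgd. The start site of the matched window lies 314 bases inside the gene for G6pdx and 689 bases inside it for Pgd. Of all 300-base windows 12.4% matched, a share per window, while a gene here could match in any of its windows. The matches in Me1 (chr9:86695904-86695928) and G6pdx (chrX:74428921-74428945), both on the minus strand, are shown on the gene's strand with the core in capitals, which in G6pdx reads on the opposite strand. The Me1 match runs from base -6 to base 3 around the RefSeq start site.
Me1 core: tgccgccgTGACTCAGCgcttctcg
G6pdx core: gcgggtcaGCTCAGTCAaagcacac
No binding was measured here, so these matches are a description of the sequence.

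**Figure D1:**
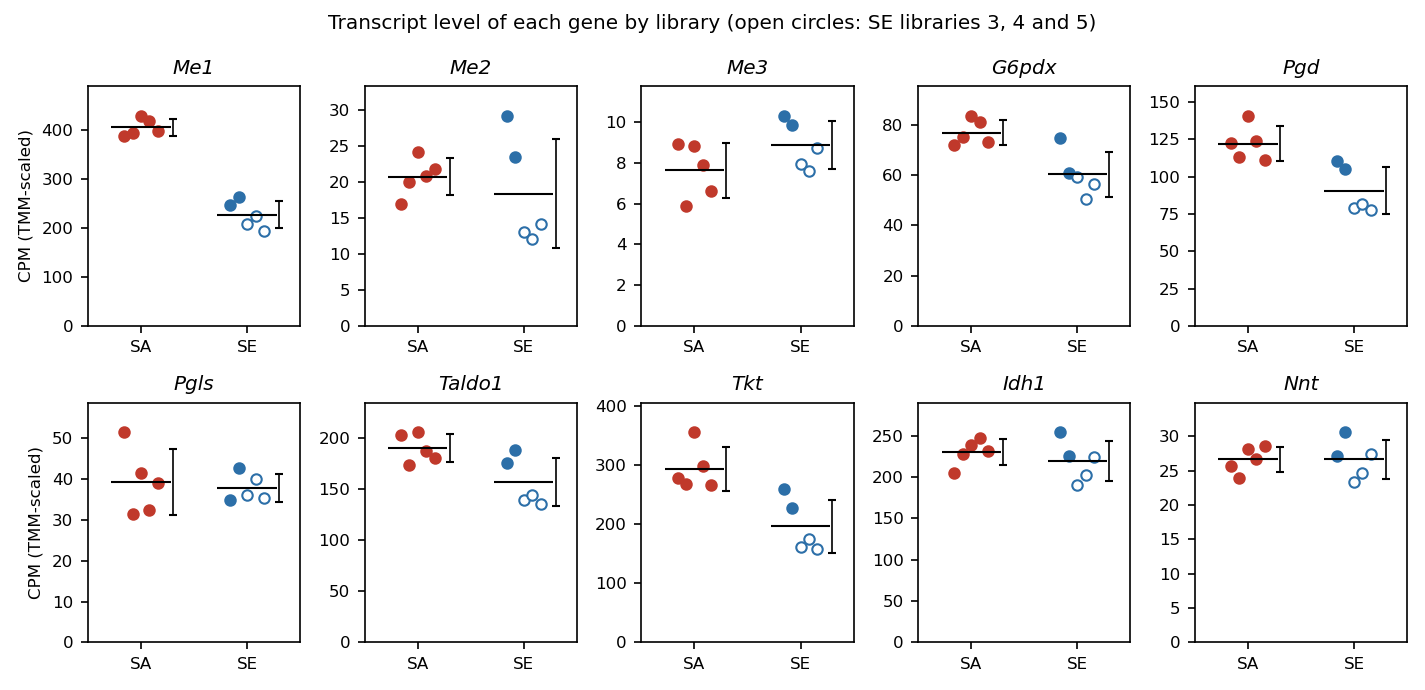
Transcript level of each of the 10 genes in CPM (y axis, from 0) for the 5 SA (red) and 5 SE (blue) libraries, 1 point per library. Horizontal lines are group means and the bars beside them SDs. Open circles mark SE libraries 3, 4 and 5. SA and SE do not overlap for Me1, Pgd and Tkt, and SE libraries 3, 4 and 5 are the lowest of SE for all genes but Pgls and Nnt.

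The other malic enzymes were low and did not share the Me1 difference past the threshold. Me2, the mitochondrial malic enzyme that prefers NAD, had 17.0, 19.9, 24.1, 20.9 and 21.9 CPM in SA libraries 1 to 5. In SE libraries 1 to 5 it had 29.2, 23.5, 13.1, 12.1 and 14.1 CPM. The 5 SA libraries thus sat between SE libraries 3 to 5 below and SE library 1 above, and SE library 2 sat within their range. The log2 fold change was 0.17 ± 0.229 (edgeR adjusted p = 0.789), and it turned to -0.34 ± 0.142 without SE libraries 3, 4 and 5 (adjusted p = 0.492). Me2 had the largest spread of the 10 genes in SE, a coefficient of variation of 41.1%.

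Me3, the mitochondrial malic enzyme that uses NADP, was the least abundant member. It had 8.95, 5.90, 8.81, 7.90 and 6.63 CPM in SA and 10.3, 9.84, 7.97, 7.60 and 8.73 CPM in SE. The groups overlapped, with the mean lower in SA (7.64 ± 1.35 against 8.89 ± 1.17 CPM, SD, n = 5 each). The log2 fold change of -0.22 ± 0.146 did not pass the threshold (edgeR adjusted p = 0.585), nor did that of -0.39 ± 0.182 without SE libraries 3, 4 and 5 (adjusted p = 0.537). It is the single member with a lower mean in SA on this scale.

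Per kilobase of exonic sequence, Me1 made up nearly all malic enzyme transcript in every library. Its share of the summed level of Me1, Me2 and Me3 was 96.6% to 97.2% in SA libraries and 93.1% to 96.4% in SE libraries, with means of 96.9% ± 0.221 and 95.0% ± 1.26 (SD, n = 5 per group). With the longest transcript as the length of each gene, the difference of the means grew from 1.87 to 3.59 percentage points, and without SE libraries 3, 4 and 5 it was 3.04 percentage points.

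Enzymes of the oxidative pentose phosphate branch had higher means in SA, and none of the 3 passed the threshold over all genes. G6pdx, the X-linked gene of glucose-6-phosphate dehydrogenase, which commits glucose to the pathway, had 72.0, 75.1, 83.6, 81.3 and 73.0 CPM in SA. In SE it had 74.8, 61.0, 59.1, 50.4 and 56.4 CPM. SE library 1 reached into the SA range and the other 4 SE libraries lay below it. For G6pdx the log2 fold change was 0.35 ± 0.0984 (edgeR adjusted p = 0.215). Without SE library 1 it was 0.44 ± 0.0779 and passed (adjusted p = 0.0309), and without SE libraries 3, 4 and 5 it was 0.19 ± 0.105 (adjusted p = 0.637). The Y-linked gene Ddx3y had more reads than Xist in SA 1, SA 3 and SE 3, and with this as a covariate the log2 fold change of G6pdx stayed 0.35 ± 0.106. In G6pdx, 13.6% of the exonic bases are shared with Ikbkg on the opposite strand, and whether reads were counted by strand was not recorded in the labels, so its level is uncertain.

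Pgd, 6-phosphogluconate dehydrogenase, makes the other NADPH of this branch. It had 122, 113, 141, 124 and 111 CPM in SA and 110.3, 105, 78.7, 81.5 and 77.9 CPM in SE. The groups did not overlap, but SE library 1 (110.3 CPM) came close to the lowest SA library (111.0 CPM). The log2 fold change was 0.43 ± 0.115 (edgeR adjusted p = 0.192), and it fell to 0.19 ± 0.101 without SE libraries 3, 4 and 5 (adjusted p = 0.622). DESeq2 called Pgd (adjusted p = 0.0419), and edgeR did so without SE library 1 (0.51 ± 0.106, adjusted p = 0.046).

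Pgls, the lactonase between these dehydrogenases, showed no difference past the threshold. Its levels were 51.3, 31.4, 41.5, 32.4 and 39.0 CPM in SA and 34.9, 42.7, 36.0, 39.8 and 35.2 CPM in SE. The highest and the lowest library were both SA libraries. Its log2 fold change was 0.05 ± 0.127 (edgeR adjusted p = 0.886), and 0.02 ± 0.175 without SE libraries 3, 4 and 5. Fam129c on the same strand shares 20.6% of the exonic bases of Pgls.

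In the non-oxidative branch, which turns pentoses back into sugars of glycolysis, Tkt had the next largest difference after Me1. Tkt, transketolase, had 279, 267, 355, 298 and 267 CPM in SA. In SE it had 259, 228, 162, 175 and 159 CPM. The groups did not overlap, with SE library 1 just under the lowest SA library and SE libraries 3, 4 and 5 well below SE library 2. The log2 fold change was 0.58 ± 0.144 and missed the threshold (edgeR adjusted p = 0.168). DESeq2 called it (0.58 ± 0.154, adjusted p = 0.0159), as did edgeR without SE library 1 (0.70 ± 0.126, adjusted p = 0.0309). Without SE libraries 3, 4 and 5 the log2 fold change was 0.27 ± 0.126 (adjusted p = 0.534).

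Taldo1, transaldolase, had 204, 174, 206, 187 and 181 CPM in SA and 176, 188, 140.0, 144 and 136 CPM in SE. SE libraries 1 and 2 lay within the SA range and SE libraries 3, 4 and 5 below it. Taldo1 had a log2 fold change of 0.28 ± 0.101 (edgeR adjusted p = 0.351), and 0.07 ± 0.0912 without SE libraries 3, 4 and 5.

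The balance between the branches was compared as a ratio within each library, which does not depend on library scaling. The log2 ratio of G6pdx, Pgls and Pgd over Taldo1 and Tkt, per kilobase of exonic sequence, was -1.23 ± 0.0152 in SA and -1.17 ± 0.0954 in SE (two-sided exact permutation p = 0.254). SA libraries lay between -1.25 and -1.21, and SE libraries ran from -1.31 in library 2 to -1.08 in library 3. The difference, SA minus SE, of -0.0585 became 0.0236 without SE libraries 3, 4 and 5 (exact permutation p = 0.571), and -0.0932 without SE library 2 (exact permutation p = 0.0159).

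Idh1 and Nnt did not differ past the threshold. Idh1, the cytosolic isocitrate dehydrogenase, had 205, 227, 238, 247 and 231 CPM in SA and 254, 225, 190.1, 203 and 225 CPM in SE. The highest library was SE 1 and the lowest SE 3, and the log2 fold change was 0.07 ± 0.0863 (edgeR adjusted p = 0.78), or -0.05 ± 0.097 without SE libraries 3, 4 and 5. Nnt, which drives NADPH formation with the mitochondrial proton gradient, had 25.7, 24.0, 28.1, 26.7 and 28.6 CPM in SA and 27.2, 30.5, 23.3, 24.7 and 27.4 CPM in SE. The group means were 26.6 ± 1.87 and 26.6 ± 2.79 CPM (SD, n = 5 per group, edgeR adjusted p = 0.998), and without SE libraries 3, 4 and 5 the log2 fold change was -0.11 ± 0.103. The C57BL/6J substrain is known to carry a deletion within Nnt, and the labels do not give the substrain. The annotation also holds another Nnt gene model, which shares 47.5% of the exonic bases of the counted one and was not used here.

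**Figure D2:**
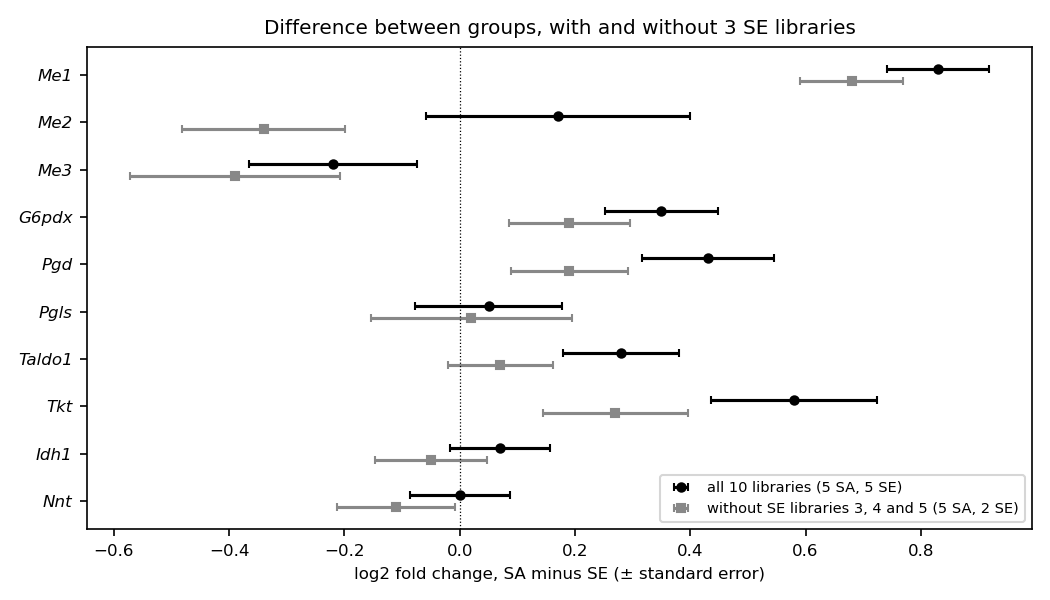
Log2 fold change, SA minus SE (x axis), of each gene with its standard error, from all 10 libraries (black circles) and without SE libraries 3, 4 and 5 (grey squares). Me1 stays at 0.68 without the 3 libraries, while Pgd goes from 0.43 to 0.19, Tkt from 0.58 to 0.27 and Taldo1 from 0.28 to 0.07, and Me2, Idh1 and Nnt turn below 0.

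Over the 10 genes, Me1 alone was called at an adjusted p under 0.05 by edgeR, where 0.0769% of the 16909 tested genes (13) were. At an unadjusted p under 0.05 there were 5 of the 10 (11.1% of all genes), namely Me1, Tkt, Pgd, G6pdx and Taldo1. The number of edgeR calls over all genes depended on single libraries, with 225 without SE library 1, 152 without SE library 2 and 7 or 8 without SA library 1, 2, 3 or 5. DESeq2 called Me1, Tkt and Pgd (1.75% of its genes), and limma voom called Me1 alone (0.071%). The 5 SA libraries lay above the 5 SE libraries for 3 of the 10, Me1, Pgd and Tkt, as they did for 1.13% of all genes, and 2.05% of all genes had no overlap in either direction. The mean was higher in SA for 9 of the 10 genes (48.3% of all genes), with Nnt at 0.00 ± 0.0869 and of the other sign with DESeq2's size factors in edgeR. The median log2 fold change was 0.23 over the 10 genes and -0.01 over all genes tested. Without SE libraries 3, 4 and 5, 6 of the 10 genes were higher in SA and 4 lower, the median was 0.05, and Me1 was again the single member called, among 41 genes in all. Since Me1 was chosen on this contrast, nothing is read from these counts.

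The authors' deposited table, a DESeq2 comparison according to their processing notes, calls Me1 and Tkt among the 10, where it calls 215 of 18651 genes (1.15%). In the authors' deposited table Tkt has a log2 fold change of 0.48 ± 0.129 (adjusted p = 0.0204), Pgd 0.38 ± 0.112 (adjusted p = 0.0541) and G6pdx 0.32 ± 0.1 (adjusted p = 0.0819). The DESeq2 fit made here on the deposited counts gave 0.58, 0.43 and 0.35 for these 3 genes. Over abundant genes, the group means of the 2 analyses were nearly the same, with median absolute log2 differences of 5.3e-06 in SE and 2.0e-05 in SA. The smaller fold changes in the authors' table thus go with the same group means, and their cause was not tested.

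SE libraries 3, 4 and 5 were below SE libraries 1 and 2 on average for every one of the 10 genes, by amounts that differed between them. The log2 ratio of the means was -1.01 for Me2, -0.56 for Tkt, -0.44 for Pgd, -0.38 for Taldo1, -0.32 for Me3, -0.30 for G6pdx, -0.29 for Me1, -0.22 for Idh1, -0.20 for Nnt and -0.07 for Pgls. These 3 libraries were set apart by the data and not by the labels, so the ratios are a description with no test. Me1 thus ranked seventh in the difference within SE skin and highest in the difference between SA and SE.

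Ordered by level per kilobase of exonic sequence (RPKM, CPM divided by length), Me1 headed the list in SA and was in the third place in SE. In SA, Me1 had 105 ± 4.41 RPKM, Taldo1 87.7 ± 6.38, Idh1 82.9 ± 5.69, Tkt 39.9 ± 5.01 and G6pdx 24.99 ± 1.67 (SD, 5 libraries). Below these came Pgd at 19.0, Pgls at 10.4, Nnt at 3.78, Me2 at 2.86 and Me3 at 0.522 RPKM. Every neighbouring pair in SA had ranges that did not overlap, except Taldo1 and Idh1. In SE, Idh1 had 79.1 ± 8.78 RPKM, Taldo1 72.3 ± 10.9 and Me1 59.0 ± 7.32, and the ranges of Idh1 and Taldo1, and of Taldo1 and Me1, overlapped, as did those of Tkt and G6pdx, G6pdx and Pgd, and Nnt and Me2. The order of the abundant genes rests on the length used. With the longest transcript in place of all exonic bases, Taldo1 came above Me1 in SA, at 139.8 ± 10.2 against 123 ± 5.15 RPKM, in 5 of 5 libraries.

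The make-up of the 10 genes shifted toward Me1 in SA. Me1 took 27.9% ± 0.599 of the summed level per kilobase in SA and 20.5% ± 1.19 in SE (SD, n = 5 per group), with SA libraries from 27.3% to 28.6% and SE libraries from 19.2% to 21.9%. The difference of the means was 7.38 percentage points, and 7.66 without SE libraries 3, 4 and 5. Idh1 took 22.0% ± 1.37 in SA and 27.6% ± 2.13 in SE. Tkt took 10.5% ± 0.75 and 9.20% ± 0.94, Taldo1 23.3% ± 1.26 and 25.1% ± 1.10, and G6pdx 6.63% ± 0.217 and 6.82% ± 0.654. Shares sum to the whole, so a larger share of Me1 lowers the others without a fall in their levels.

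**Figure D3:**
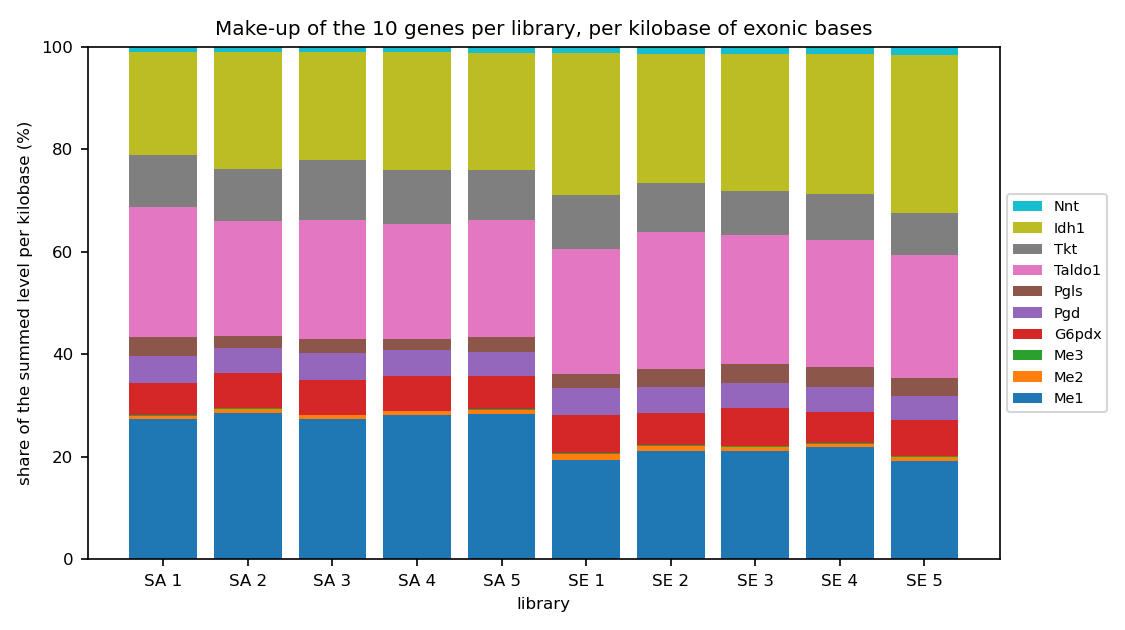
Share (y axis, percent) of each of the 10 genes in their summed level per kilobase of exonic bases, 1 stacked bar per library. The Me1 part at the foot of each bar is 27.3% to 28.6% in SA and 19.2% to 21.9% in SE, SE libraries 1 and 2 included.

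Genes of fatty acid synthesis, a pathway that spends NADPH, had the largest median difference of the surrounding pathway lists. Of 11 such genes, all tested, 10 had a higher mean in SA and the median log2 fold change was 0.61, against -0.01 over all genes. None passed the threshold in edgeR, 7 had an unadjusted p under 0.05, DESeq2 called 5 and limma voom 0. Acss2, which makes acetyl-CoA from acetate, had between 96.2 and 112 CPM in SA and between 39.5 and 74.1 CPM in SE (log2 fold change 0.95 ± 0.168, edgeR adjusted p = 0.0726). Acly, which makes it from citrate, had 0.61 ± 0.115, and Acaca, the acetyl-CoA carboxylase, 0.92 ± 0.176 (edgeR adjusted p = 0.086 for each). Fasn, the synthase that consumes NADPH directly, had 1525 ± 168 CPM in SA and 663 ± 279.9 in SE (1.20 ± 0.232, adjusted p = 0.0887). Without SE libraries 3, 4 and 5 the median of the list was 0.40 and Acss2 was called (0.55, adjusted p = 0.0355). This list was written with results of these data known.

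Carriers and enzymes that feed malate to Me1 were mixed. Of 15 genes of malate and citrate cycling, 11 had a higher mean in SA, the median was 0.11, and edgeR called none (6 at an unadjusted p under 0.05, 3 called by DESeq2, 0 by limma voom). Pcx, pyruvate carboxylase, which returns pyruvate to oxaloacetate, had 222 ± 29.5 CPM in SA and 109.8 ± 46.3 in SE (1.02 ± 0.232, edgeR adjusted p = 0.146). Slc25a1, the mitochondrial citrate carrier, had 0.79 ± 0.204 (adjusted p = 0.175). Pck1, which takes oxaloacetate toward glucose and glycerol, went the other way at -1.56 ± 0.358 (adjusted p = 0.149). The malate dehydrogenases Mdh1 and Mdh2 had 0.09 ± 0.103 and 0.03 ± 0.108. Without SE libraries 3, 4 and 5, 6 of the 15 had a higher mean and the median was -0.12, with Pcx at 0.52 and Slc25a1 at 0.34.

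The remaining pentose phosphate genes and the remaining NADPH enzymes had medians near 0 with all 10 libraries. Of 10 further pentose phosphate genes, 7 were tested, 4 had a higher mean in SA and the median was 0.01 (0.04 without SE libraries 3, 4 and 5). The endoplasmic reticulum enzyme H6pd had -0.22 ± 0.15 and the ribose isomerase Rpia 0.13 ± 0.0912, and Tktl2 had no read in any library. Of 10 further NADP and folate enzymes, all tested, 7 had a higher mean and the median was 0.02, but without SE libraries 3, 4 and 5 the count turned to 2 higher and 8 lower, with a median of -0.13. Idh2, the mitochondrial isocitrate dehydrogenase, had 115 ± 9.67 CPM in SA and 114 ± 7.31 in SE (0.02 ± 0.0742, edgeR adjusted p = 0.927), and Nadk, which makes NADP from NAD, 0.06 ± 0.0656. In both lists edgeR, DESeq2 and limma voom called none, and none had an unadjusted p under 0.05.

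Other genes regulated by Nrf2 did not share the Me1 difference in these values. Of 15 such genes, 7 had a higher and 8 a lower mean in SA, and the median was -0.01 (5 higher, 10 lower and -0.07 without SE libraries 3, 4 and 5), with none called by edgeR, DESeq2 or limma voom and 3 at an unadjusted p under 0.05. These were Gclc (-0.46 ± 0.17), a subunit of glutamate-cysteine ligase, its partner Gclm (-0.15 ± 0.0678) and the haem oxygenase gene Hmox1 (-0.24 ± 0.0925), with means lower in SA. Without SE libraries 3, 4 and 5, Gclc was at 0.06, Gclm at -0.09 and Hmox1 at -0.14. Gclc averaged 42.3 CPM in SA, 40.8 in SE libraries 1 and 2, and 70.0 in SE libraries 3, 4 and 5. Nqo1, a quinone reductase often used as a marker of Nrf2 activity, had 16 ± 2.05 CPM in SA and 13.6 ± 1.90 in SE (0.23 ± 0.122, edgeR adjusted p = 0.499). Of 14 redox enzymes that use NADPH, 12 had a higher mean with a median of 0.10 (8 and 0.03 without SE libraries 3, 4 and 5), edgeR, DESeq2 and limma voom called none, and Txnrd2 had an unadjusted p under 0.05 (0.29 ± 0.11).

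Of 11 regulators of lipogenic genes, 6 had a higher mean in SA, with a median of 0.15 (8 and 0.05 without SE libraries 3, 4 and 5), none called by edgeR or limma voom, 1 by DESeq2 and 4 at an unadjusted p under 0.05. Insig1, a brake on sterol-sensing transcription that is itself induced by it, had 127 ± 9.49 CPM in SA and 75.0 ± 24.4 in SE (0.76 ± 0.178, edgeR adjusted p = 0.149). The lipogenic factor genes Srebf1 and Mlxipl had 0.27 ± 0.141 and 0.15 ± 0.13 (adjusted p = 0.5 and 0.677), and Srebf1 was at -0.02 without SE libraries 3, 4 and 5.

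**Figure D4:**
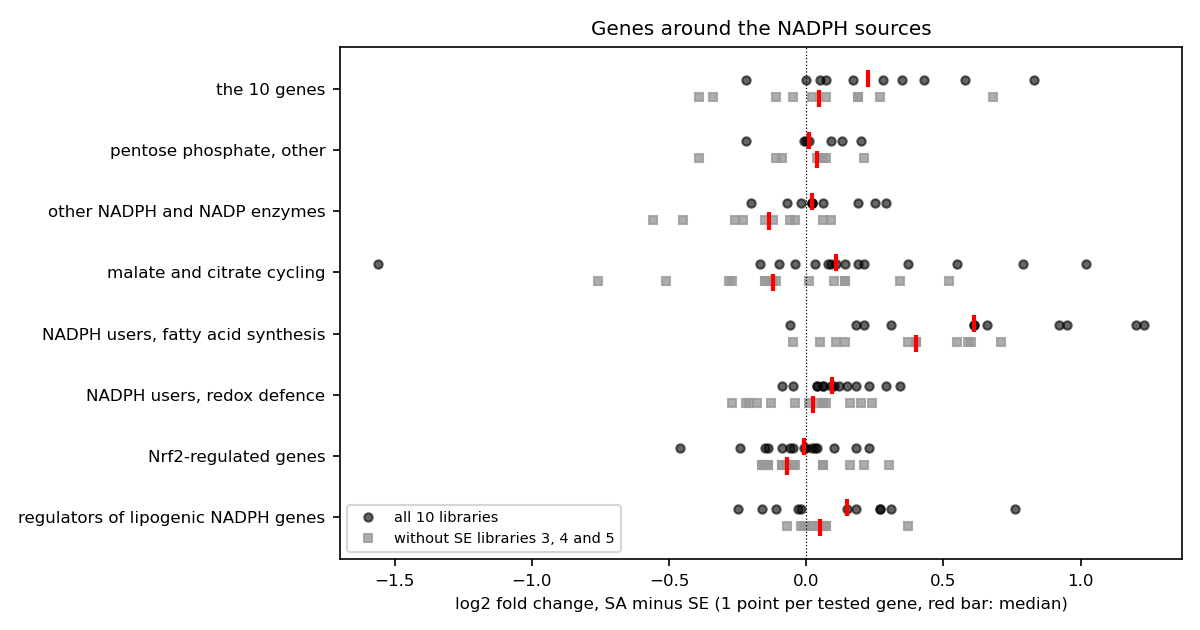
Log2 fold change, SA minus SE (x axis), of each tested gene in the 10 genes described here and in the surrounding lists, with all 10 libraries (black circles) and without SE libraries 3, 4 and 5 (grey squares). Red bars are medians. The fatty acid synthesis list has a median of 0.61 with all libraries and 0.40 without the 3, while the other surrounding lists have medians between -0.13 and 0.15.

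The genes whose levels followed Me1 most closely over the 10 libraries, by Pearson r of log2 CPM among 13934 genes with at least 1 CPM on average and a named symbol, were Acss2 (r = 0.967), Scd1 (0.963), Dgat2 (0.958), Acly (0.95) and Rdh11 (0.949). Scd1, the fatty acid desaturase, had 4248 ± 220.4 CPM in SA and 2776 ± 507 in SE. Dgat2, which completes triglyceride synthesis, had 378 ± 28.9 and 245 ± 39.2 CPM. Among the other 9 genes, Tkt (0.91, place 27) and Pgd (0.899, place 41) came nearest, and Me3 had -0.359. The group difference and the split within SE both enter these coefficients, and genes of 10 shared libraries are not independent, so they describe likeness only.

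Markers of cell types that could carry these enzymes were read in the same libraries. Of the 12 sebaceous gland markers given above, none was called by edgeR with all libraries (4 at an unadjusted p under 0.05, 1 by DESeq2, 0 by limma voom). Krt79 had -0.03 ± 0.121 and Far2 0.27 ± 0.0917. For 12 adipocyte markers the sum was 3561 to 4618 CPM in SA and 2264 to 4652 in SE, with 8 higher, none called by edgeR, 2 at an unadjusted p under 0.05, 1 called by DESeq2 and 0 by limma voom. Car3 had 0.30 ± 0.201 and Cfd 0.33 ± 0.209. The adipocyte markers at an unadjusted p under 0.05, named after their values were seen, went opposite ways, with Retn at 0.88 ± 0.273 and Plin4 at -0.63 ± 0.159, and for Plin4 the 5 SA libraries lay below the 5 SE libraries. For 9 interfollicular epidermis markers the sum was 14920 to 19000 CPM in SA and 13150 to 18160 in SE, with 6 higher, none called by edgeR, 2 at an unadjusted p under 0.05, 1 called by DESeq2 and 0 by limma voom. For 12 leukocyte markers the sum was 370 to 596 CPM in SA and 347 to 629 in SE, so the groups overlapped. Of the 11 tested, 9 had a higher mean in SA and 2 a lower one, with 4 at an unadjusted p under 0.05. DESeq2 called 2 of them, and edgeR and limma voom 1 each. Csf1r had 0.20 ± 0.187 and Cpa3 0.12 ± 0.211. The marker called by edgeR was Trdc, a chain of the gamma delta T cell receptor, at 14.9 ± 0.251 CPM in SA and 8.94 ± 1.14 in SE (0.73 ± 0.102, edgeR adjusted p = 0.022). Every marker of the sebaceous, adipocyte and epidermal lists had reads, and the part of the adipocyte, epidermal and leukocyte markers in the Me1 difference was not tested.

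Summed levels of hair follicle and fasting genes were higher in SE libraries 3, 4 and 5. The summed level of 8 inner root sheath genes was 516 to 2828 CPM in those 3 libraries, 100.4 to 184 in SE libraries 1 and 2, and 120.2 to 182 in SA. The 8 genes of the fasting list, among them Txnip, summed to 1994 to 2159 CPM in those 3 libraries, 757 to 867 in SE libraries 1 and 2, and 643 to 862 in SA. Txnip alone averaged 1065, 415 and 394 CPM, in the same order. Pdk4 was the 1 gene of this list whose SA libraries all lay below the SE libraries (8.67 to 17.1 against 22.0 to 144 CPM). Its log2 fold change was -2.66 ± 0.489 (edgeR adjusted p = 0.0807), and -0.87 without SE libraries 3, 4 and 5 (adjusted p = 0.18). The part of these differences in the lower Tkt, Pgd, Taldo1 and Me2 levels of the same 3 libraries was not tested. Without those libraries, where Me1 had a log2 fold change of 0.68, the SA and SE ranges overlapped for the inner root sheath sum and for the fasting sum. The part of either list in the Me1 difference was not tested. Proliferation genes summed to 320.1 to 355 CPM in the 3 libraries, 597 to 728 in SE libraries 1 and 2, and 511 to 739 in SA.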

How the data were processed

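RNA of whole skin was sequenced in 5 SA and 5 SE libraries, grouped by sample title. The authors' deposited counts are whole reads per Ensembl gene. The submitters' processing notes name STAR (2.4.2a), HTSeq (0.6.1p1), SAMtools and the build GRCm38. Annotation release, counting mode and strand use: not given in the sources used here. The 5 rows that name no gene held 30.5% to 34.6% of listed reads and were left out.

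A second deposited table holds the authors' DESeq2 comparison, with group means of normalized counts (a signal), log2 fold changes, a Wald statistic (a score), p-values and adjusted p-values. Its direction was checked against the counts, and it was used only where named.

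Counts were tested in R 4.3.3 with edgeR 4.0.16 over all genes (filterByExpr, minimum count 10, TMM scaling, quasi-likelihood test, two-sided, prior count 0.125, Benjamini-Hochberg threshold 0.05), and checked on simulated data. Alternatives used DESeq2 1.42.0, limma 3.58.1 (voom), other scalings and filters, covariates and left-out libraries. RPKM is scaled CPM per kilobase of exonic bases in GENCODE M21. Replicate pairs differed beyond sampling noise (chi-square per degree of freedom 5.1 to 83.9). The members, gene lists, rule for named genes and tests were chosen with earlier results of these data known. The rule names all 10 members, up to 3 genes per pathway list by smallest p, markers by level, and the 5 genes most like Me1. Genes named outside it were chosen after their values were seen. Promoter sequences are from RefSeq. 1 listed marker gene is not reported here.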

Additional observations from a re-analysis of the deposited data

How the results depend on the processing

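Each of the 10 genes was refitted under 19 alternatives, 190 values in all, of which 174 kept their direction and side of the threshold, 1 lost a call, 5 gained one and 10 changed sign. The log2 fold change of Me1, on which the gene was chosen, ranged from 0.68 to 0.89. The count of 13 called genes became 346 with DESeq2 and 41 without SE libraries 3, 4 and 5, and ran from 7 to 225 when 1 library was left out. Without SE libraries 3, 4 and 5, Me2 was at -0.34, Idh1 at -0.05, Nnt at -0.11 and the log2 ratio of oxidative to non-oxidative genes differed by 0.0236. Pgls was at -0.01 with the Ddx3y and Xist covariate and ran from -0.06 to 0.12 when 1 library was left out. Nnt was at -0.000506 with DESeq2's size factors in edgeR and ran from -0.04 to 0.06 when 1 library was left out, and the log2 ratio ran from -0.0932 to -0.0353. With longest transcripts, the Me1 share differed by 3.59 percentage points among malic enzymes and 5.97 among the 10 genes. Scalings moved the median of all genes to between -0.0089 and 0.0227. The cause of these changes was not tested.

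Same-numbered SA and SE libraries did not deviate together (correlations from -0.288 to 0.072, and 1 SA library correlated best with its own number), so the replicate numbers were not taken to pair the libraries. With the replicate number as a block, 10 genes were called, and Me1 had a log2 fold change of 0.84 ± 0.104 and was not among them. The block changed no other call among the 10 genes. Read depth limits Me3 most, at 134 to 256 reads per library.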

Other observations

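With the group means taken out, which leaves the spread within SA and within SE, the genes most like Me1 over the 10 libraries by Pearson r of log2 CPM were Tlcd2 (0.97), Ndc80 (0.965), Podxl (0.964), Gemin6 (0.963) and Myl9 (0.956), a different top 5 from that of the values as measured. Podxl, a sialomucin of vessels, had 53.9 ± 4.89 CPM in SA and 53.8 ± 13.3 in SE (SD, 5 libraries). Among the other 9 genes, Tkt had 0.874 (place 296 of 13934), Pgd 0.867, Taldo1 0.862 and Me2 0.771, while G6pdx had 0.538. The split within SE enters these coefficients too. Me1 had a coefficient of variation of 4.19% in SA and 12.4% in SE, with 255 CPM in SE libraries 1 and 2 and 209 CPM in SE libraries 3, 4 and 5. All genes share the same 10 libraries, and these coefficients are a description with no test.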
